A study of Homo sapiens with 6 samples.

Results

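The genes described here encode 3 receptors that carry growth and pigment signals into melanocytes, together with their ligands and a ligand-processing enzyme. They are the melanocortin receptor MC1R, the receptor tyrosine kinase KIT with its ligand KITLG, and the endothelin axis of EDNRB, EDNRA, EDN1 and ECE1. The 7 genes were chosen by name, and each was read from the probe set that the platform annotation lists under its symbol alone. Of the 7, 6 had such a probe set and were measured among 18417 genes, with 1 probe set each, and EDNRA was not analysed here. Where a gene had several probe sets the one with the highest mean would have stood for it, a step that no member needed. A further probe set is listed under MC1R together with its neighbour TUBB3, and it was not used because it names 2 genes.

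WM164 is an established human melanoma line from a lymph node metastasis that carries mutated BRAF. The Parent group held 3 cultures given DMSO, the vehicle, for a time that was not found in the labels. IDTC stands for induced drug tolerant cells, and this group held 3 cultures of the same line given PLX4032 (vemurafenib, an inhibitor of mutant BRAF) at 500 nM for 16 days. RNA from each culture was isolated on its own and hybridised to 1 whole-transcript array, so n = 3 arrays per group. All values come from 1 cell line, and nothing in the labels says that the cultures were started separately, so p-values measure the spread between these arrays, part of which may be technical. In bulk RNA, fewer cells that express a gene and less RNA per cell cannot be told apart.

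MC1R is the receptor of melanocytes for alpha-melanocyte stimulating hormone. It couples to the stimulatory G protein, raises cyclic AMP and turns pigment synthesis towards dark eumelanin. KIT is needed for melanoblasts to survive and migrate, and its ligand, made in skin by keratinocytes and fibroblasts, exists as membrane-bound and shed forms. EDNRB binds all endothelins and signals mainly through Gq proteins to phospholipase C and protein kinase C, while EDNRA prefers endothelin 1. EDN1 encodes the precursor of endothelin 1, which furin-type proteases and then the endothelin-converting enzyme ECE1 cut to the active peptide. MITF and SOX10, transcription factors of the lineage, are known regulators of several of these receptor genes.

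The promoters of MC1R and EDNRB, the receptor genes that moved in opposite directions, are shown because both hold the letters CATGTG, the core of the M-box to which MITF can bind. The 250 bases before a start site are given 5′ to 3′ on the strand of the gene, from RefSeq on GRCh38.p14, with CATGTG or its reverse complement in capitals. The MC1R window is chr16:89918612-89918861 on the + strand. The window of the first of 2 starts of EDNRB is chr13:77919683-77919932 on the - strand.
MC1R: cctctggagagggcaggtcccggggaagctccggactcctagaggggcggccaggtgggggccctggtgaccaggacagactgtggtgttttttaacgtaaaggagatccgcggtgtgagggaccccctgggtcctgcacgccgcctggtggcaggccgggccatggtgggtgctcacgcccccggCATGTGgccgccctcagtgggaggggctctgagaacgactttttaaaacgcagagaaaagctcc
EDNRB: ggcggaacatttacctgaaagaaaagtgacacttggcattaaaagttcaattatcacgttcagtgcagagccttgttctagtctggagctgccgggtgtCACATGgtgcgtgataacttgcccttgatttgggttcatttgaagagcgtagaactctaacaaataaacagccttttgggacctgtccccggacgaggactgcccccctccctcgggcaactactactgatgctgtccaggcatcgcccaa
The match began 64 bases before the start of MC1R and, on the opposite strand, at 151 bases before that of EDNRB. It was found in 9.44% of 34788 distinct windows of this kind and in 2 of the 13 windows of the 7 genes, so it is a common sequence, and the data do not bear on whether MITF occupies it. The second EDNRB window did not hold these letters. The TFAP2 site letters GCCNNNGGC, searched on both strands, were present in windows of MC1R, KITLG, EDNRB and ECE1 (4 of 13) and in 19.8% of all windows. The letters of the AP-1 site TGANTCA, the cyclic AMP response element TGACGTCA and the palindromic E-box CACGTG were in none of the 13 windows, and in 6.59%, 1.64% and 6.31% of all windows. The SOX site letters ACAAAG were in the window of EDNRA alone among the 7 genes and in 13.8% of all windows.

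Among the 6 measured genes EDNRB rose 6.36-fold in the drug-tolerant cells, while MC1R, ECE1 and KITLG fell 3.03-fold, 3.27-fold and 2.97-fold. KIT and EDN1 were not called in either direction. Calls rest on limma, fitted to all 18417 genes, with a Benjamini-Hochberg threshold of 0.05 for the adjusted p, and differences are IDTC minus Parent on the log2 scale throughout. The single rise stands beside a background in which 21.7% of all genes were called higher, and the 3 falls beside 24.9% called lower. With 46.6% of all genes called, a call alone says little about any one of them. All 4 called members changed by 2-fold or more, as did 9.21% of all genes (3.81% called higher and 5.4% called lower). The members were chosen with earlier results of these data known, so these counts describe them and are no evidence that they stand apart.

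**Figure D1:**
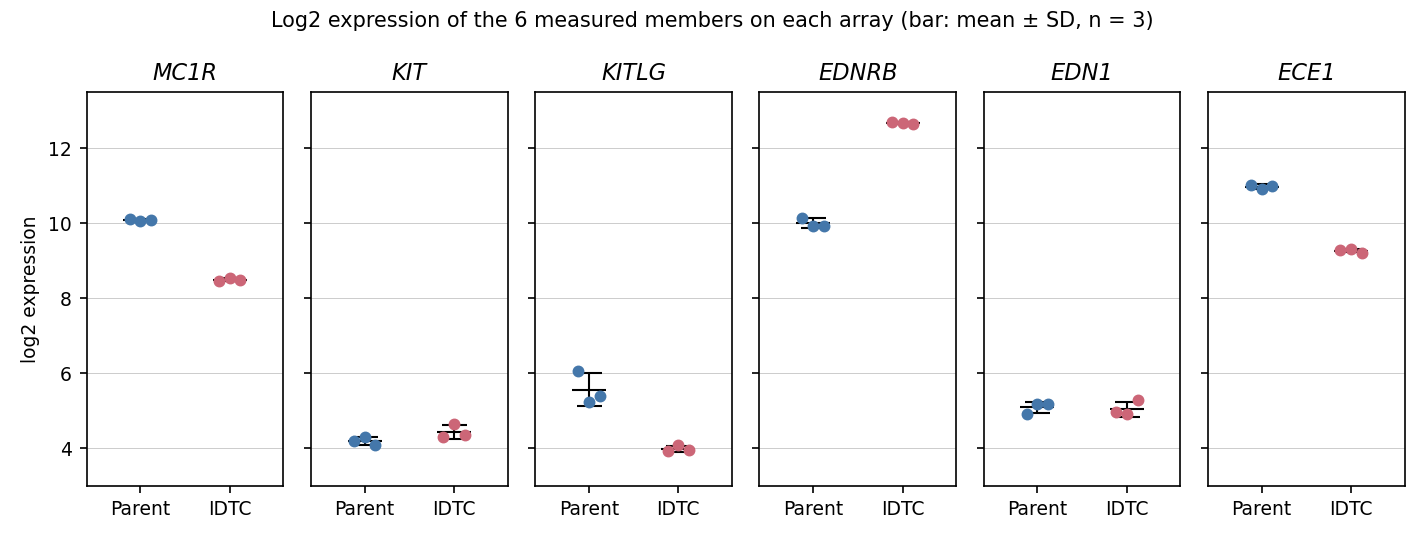
Each panel plots the log2 expression of 1 gene on the 3 Parent arrays (blue) and the 3 IDTC arrays (red), with the mean and SD in black. The groups are apart for MC1R, KITLG, EDNRB and ECE1 and overlap for KIT and EDN1; heights are not comparable between panels, because each gene has its own probes.

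EDNRB, the endothelin B receptor gene, had log2 values of 10.146, 9.938 and 9.925 on the Parent arrays and 12.710, 12.670 and 12.634 on the IDTC arrays. All IDTC arrays lay above all Parent arrays, as they did for 25.4% of genes. The difference was 2.67 ± 0.07 (SE, limma, adjusted p = 4.14e-07, n = 3 per group), with a 95% interval of 2.50 to 2.84. EDNRB ranked 34th from the top among the 18417 log2 fold changes. The Parent arrays spread more (SD 0.12) than the IDTC arrays (SD 0.04), and both spreads were small beside the difference.

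MC1R, the melanocortin receptor gene, read 10.123, 10.071 and 10.077 in Parent and 8.458, 8.538 and 8.480 in IDTC cells. All IDTC arrays lay below all Parent arrays, as they did for 28.7% of genes. MC1R fell by 1.60 ± 0.05 (adjusted p = 8.07e-07, 95% interval -1.72 to -1.47), with one of the smaller spreads on the arrays, at the 7.01 percentile of within-group SD. It ranked 292nd from the bottom of all log2 fold changes. ECE1, the enzyme that makes active endothelin, fell by nearly the same amount, from 11.026, 10.908 and 10.989 to 9.275, 9.302 and 9.219. Its log2 fold change was -1.71 ± 0.06 (adjusted p = 8.94e-07, 95% interval -1.84 to -1.57), and the groups were apart on every array.

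KITLG, the KIT ligand gene, read 6.052, 5.224 and 5.389 in Parent and 3.927, 4.080 and 3.942 in IDTC cells. The first Parent array was the highest and stood apart from the other two, and the IDTC arrays lay close together below all of them. The log2 fold change was -1.57 ± 0.20 (adjusted p = 4.08e-04, 95% interval -2.04 to -1.11), with an SE larger than that of any other member and a within-group SD at the 99.2 percentile of all genes. Without the first Parent array the fall was 1.32 on the log2 scale and was still called. The groups did not overlap for 4 of the 6 measured members and for 54.1% of all genes.

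KIT had log2 values of 4.180, 4.290 and 4.083 in Parent and 4.290, 4.656 and 4.347 in IDTC cells. The groups met at 4.290, and the second IDTC array was the highest of all. The difference of 0.25 ± 0.11 was not called (adjusted p = 0.101), and its 95% interval of -0.01 to 0.50 leaves out a 2-fold change in the values as measured. EDN1, the endothelin 1 precursor gene, read 4.924, 5.182 and 5.171 in Parent and 4.959, 4.900 and 5.273 in IDTC cells, so that the groups were interleaved. Its difference was -0.05 ± 0.12 (adjusted p = 0.774, 95% interval -0.32 to 0.23).

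KIT, KITLG and EDN1 were dim on these arrays. Ranked by mean signal over the 6 arrays they lay at the 8.26, 13.9 and 18.2 percentile of all genes, whereas MC1R, ECE1 and EDNRB lay at the 85.7, 93.3 and 98.3 percentile. Signal depends on the probes as well as on the transcript, so these ranks describe brightness and not abundance. Among markers of cell types that a melanoma culture should lack, the median percentile was 13.0 for 8 keratinocyte, 19.8 for 10 endothelial, 13.9 for 5 mast cell and 33.2 for 10 fibroblast markers. Single markers were brighter, such as LUM at 60.7, COL1A1 at 55.6 and KRT14 at 52.9, so these medians are not a measured background. The table carries no detection call, and a background signal makes the fold change of a dim gene smaller than that of its transcript. Whether KIT, EDN1 and, in IDTC cells, KITLG lay above background is therefore unknown.

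**Figure D2:**
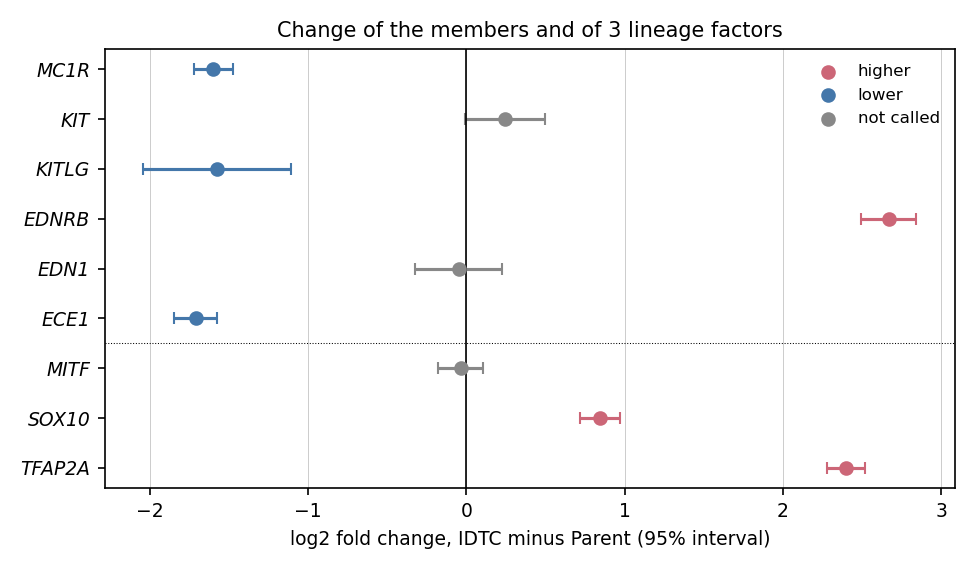
Points give the log2 fold change (IDTC minus Parent) of the 6 measured members, above the dotted line, and of MITF, SOX10 and TFAP2A below it, with 95% intervals from limma. EDNRB, SOX10 and TFAP2A lie to the right of 0, MC1R, KITLG and ECE1 to the left, and the intervals of KIT, EDN1 and MITF include 0.

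The difference between the log2 values of 2 genes on the same array is free of any scaling that shifts a whole array, and only its change between the groups has a meaning. EDNRB minus MC1R was 4.27 higher in IDTC cells, with single IDTC arrays 4.22 to 4.34 above the Parent mean and Parent arrays within -0.06 to 0.11 of it. EDNRB minus KIT was 2.42 higher, with IDTC arrays at 2.19 to 2.60 and Parent arrays at -0.17 to 0.15. KIT minus KITLG, receptor against ligand, was 1.82 higher, with IDTC arrays at 1.73 to 1.95 and Parent arrays at -0.50 to 0.44. KIT minus MC1R was 1.85 higher, with IDTC arrays at 1.74 to 2.02 and Parent arrays at -0.09 to 0.12. For each of the 4 pairs the groups were apart, and the exact permutation test over the arrays (2-sided) gave p = 0.1, the smallest that 3 against 3 arrays allow (0.1 after adjustment over the 4 pairs). Because KIT, and KITLG in IDTC cells, may not lie above background, the 3 pairs with KIT largely restate the change of the other gene as measured, and EDNRB minus MC1R is the pair of bright genes. A comparison of EDNRB with EDNRA was planned and was not made.

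**Figure D3:**
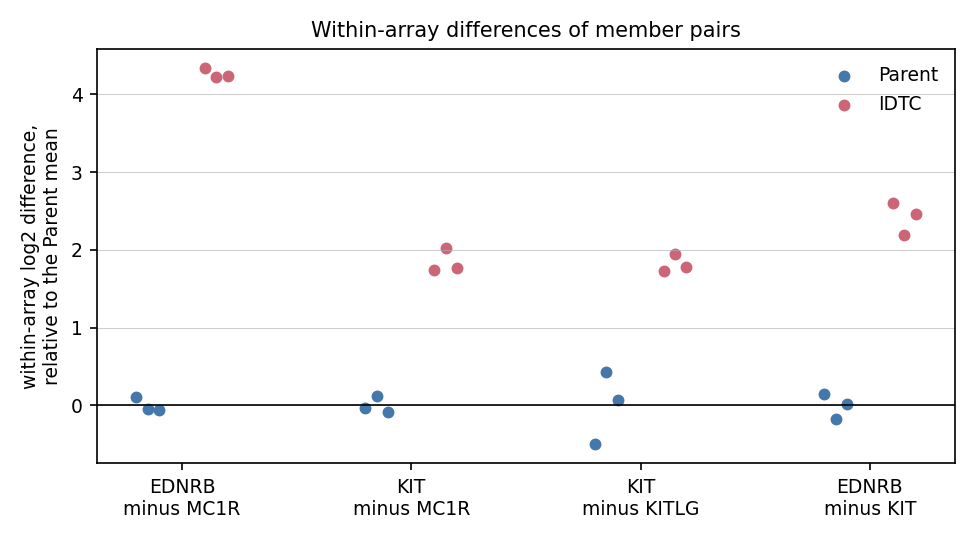
The within-array log2 difference of 4 pairs of members is plotted for each array relative to its Parent mean, Parent in blue and IDTC in red. Every IDTC array lies above every Parent array, most of all for EDNRB minus MC1R, at 4.22 to 4.34.

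On the melanocortin side, the ligands and antagonists did not change beyond their spread. POMC, the precursor of alpha-melanocyte stimulating hormone, was at 5.76 ± 0.08 (SD) in Parent and 5.63 ± 0.17 in IDTC cells, and ASIP, the agouti antagonist of MC1R, at 6.36 ± 0.08 and 6.27 ± 0.16. POMC and ASIP lay at the 28.7 and 39.5 brightness percentile, and whether they lay above background is unknown. Of 9 measured ligands, antagonists, processing enzymes and accessory proteins, 2 rose, 1 fell and 6 were not called (33.3% called against 46.6% of all genes, median log2 fold change 0.09 against -0.01). The list lay at a median percentile of 40.8, and dim genes were called less often than bright ones. The gene that fell was MRAP2, an accessory protein of melanocortin receptors, from 7.456, 7.297 and 7.428 to 5.495, 5.229 and 5.478 (-1.99 ± 0.09). PAM, which amidates peptide hormones, rose by 0.56 ± 0.08 and ATRN, which agouti protein needs to act, by 0.31 ± 0.07. None of the 4 other melanocortin receptor genes was called by limma, and 1 had an unadjusted p under 0.05. These 4 genes were dim, at a median percentile of 14.96, so the lack of calls says little about them. Whether they lay above background is unknown. MC2R had the largest difference among them (-0.23 ± 0.08, adjusted p = 0.059), which was called lower under 4 of 12 alternatives, and MC5R was at 4.93 ± 0.09 and 4.79 ± 0.05.

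Taken over all its genes, the relay from MC1R to cyclic AMP had no common direction. Of 26 measured genes 9 rose, 11 fell and 6 were not called (76.9% called, median 0.00). These genes were bright, at a median percentile of 69.0, and among the brightest 60% of all genes 65% were called. Adenylyl cyclase genes, whose products make cyclic AMP, went both ways. ADCY2 rose from 7.309, 7.240 and 7.309 to 9.244, 9.174 and 9.120 (1.89 ± 0.06), and ADCY3 fell from 9.871, 9.758 and 9.902 to 8.379, 8.431 and 8.340 (-1.46 ± 0.06). The regulatory subunit genes of protein kinase A PRKAR2A and PRKAR2B fell by 1.18 ± 0.09 and by 1.14 ± 0.06. Its other measured subunit genes were called lower as well, namely PRKAR1B (-0.72), PRKACB (-0.56), PRKACA (-0.44) and PRKAR1A (-0.33). Within the relay, the subunit genes of this kinase thus shared a direction. GNAS, the stimulatory G protein to which MC1R couples, was higher by 0.16 ± 0.05, a call that was lost under 9 of 13 alternatives.

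KIT belongs to the class III receptor tyrosine kinases with PDGFRA, PDGFRB, CSF1R and FLT3. Of 11 measured genes of that class and its ligands 1 rose, 2 fell and 8 were not called (27.3% called against 46.6% of all genes). Their log2 fold changes lay between -0.38 and 0.25 (median -0.02). The list was dim, at a median percentile of 32.1, and dim genes were called less often than bright ones. PDGFC fell by 0.38 ± 0.07 and PDGFRA by 0.28 ± 0.06, and the rise of FLT3LG (0.25 ± 0.08) was lost under 8 of 13 alternatives. The fall of KITLG, at -1.57, was larger than that of any gene of this list. Both KITLG and the list were chosen with earlier results of these data known, so this is no evidence that KITLG stands apart. Among 26 adaptors, kinases, phosphatases and ubiquitin ligases that act at KIT 11 rose, 7 fell and 8 were not called (69.2% called, median 0.01). These genes were bright, at a median percentile of 82.7, and their share of calls was near the 65% of the brightest 60% of all genes. The docking protein gene GAB1 rose from 8.558, 8.426 and 8.340 to 10.483, 10.416 and 10.235 (1.94 ± 0.09) on the brighter of its 2 probe sets. Over the 13 alternatives, which include the mean of a gene's probe sets, its rise was 1.09 to 2.01. The SRC family kinase gene LYN fell from 8.313, 8.060 and 8.234 to 6.867, 6.735 and 6.736 (-1.42 ± 0.08). CBLB, a ubiquitin ligase that ends receptor signals, rose by 1.23 ± 0.05 and the RAS exchange factor gene SOS2 by 1.19 ± 0.07. Most of these proteins serve many receptors besides KIT. ADAM17, a protease that sheds KIT and its ligand, was at 8.88 ± 0.02 and 8.86 ± 0.06.

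Of the endothelin ligands and peptidases besides the members, 4 of 12 fell and none rose (33.3% called against 46.6% of all genes, median -0.11). Of all genes 24.9% were called lower. The list was dim, at a median percentile of 30.8, and calls were more frequent among bright genes (65% of the brightest 60%). FURIN, the protease that makes the first cut in precursors of the endothelin type, fell from 9.253, 9.270 and 9.412 to 7.690, 7.636 and 7.701 (-1.64 ± 0.06). ECE2, a second endothelin-converting enzyme, fell by 0.62 ± 0.10, from 7.20 ± 0.05 to 6.57 ± 0.19. The other genes that fell were PHEX (-0.83 ± 0.13), a peptidase related to ECE1 with a role in phosphate balance, and the furin-like PCSK6 (-0.46 ± 0.05). PCSK6 had the same value, 7.995, on all 3 IDTC arrays. KEL, the blood group peptidase that can cut the endothelin 3 precursor, was at 5.42 ± 0.15 and 5.68 ± 0.11 and was called higher under 3 of 12 alternatives. The ligand genes EDN2 (7.10 ± 0.08 and 6.95 ± 0.16) and EDN3 (5.56 ± 0.04 and 5.59 ± 0.20) were not called. The converting enzyme genes ECE1 and ECE2 were thus both lower in IDTC cells, whereas no call was made for the 3 endothelin genes.

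Downstream of the endothelin receptor, 7 of 31 measured genes rose, 15 fell and 9 were not called (71% called, median -0.17). At a median brightness percentile of 69.3, this share too stands beside 65% of the brightest 60% of genes rather than 46.6% of all genes. RASGRP3, a RAS exchange factor that responds to diacylglycerol, rose from 5.131, 4.864 and 5.112 to 7.677, 7.568 and 7.519, by 2.55 ± 0.09 log2. Whether it lay above background in Parent cells is unknown. PLCB4, one of the phospholipase C beta genes whose products Gq proteins activate, fell from 8.225, 8.181 and 8.169 to 6.031, 6.152 and 5.968, by 2.14 ± 0.06 log2. These genes lay at either end of the list, and their groups were apart on every array. Of the genes that silence activated receptors, only the kinase gene GRK3 rose, by 1.42 ± 0.07, and the arrestin gene ARRB1 fell by 1.27 ± 0.05. The other measured receptor kinase genes fell, GRK5 by 1.00 ± 0.07, GRK2 by 0.52 ± 0.07 and GRK6 by 0.47 ± 0.06. GRK5 had 2 probe sets, and its log2 fold change was -1.03 to -0.64 over the alternatives. GNAQ, the Gq protein gene itself, read 10.19 ± 0.01 on Parent and 10.26 ± 0.03 on IDTC arrays and was not called. GNA11, its close relative, was lower by 0.31 ± 0.07.

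**Figure D4:**
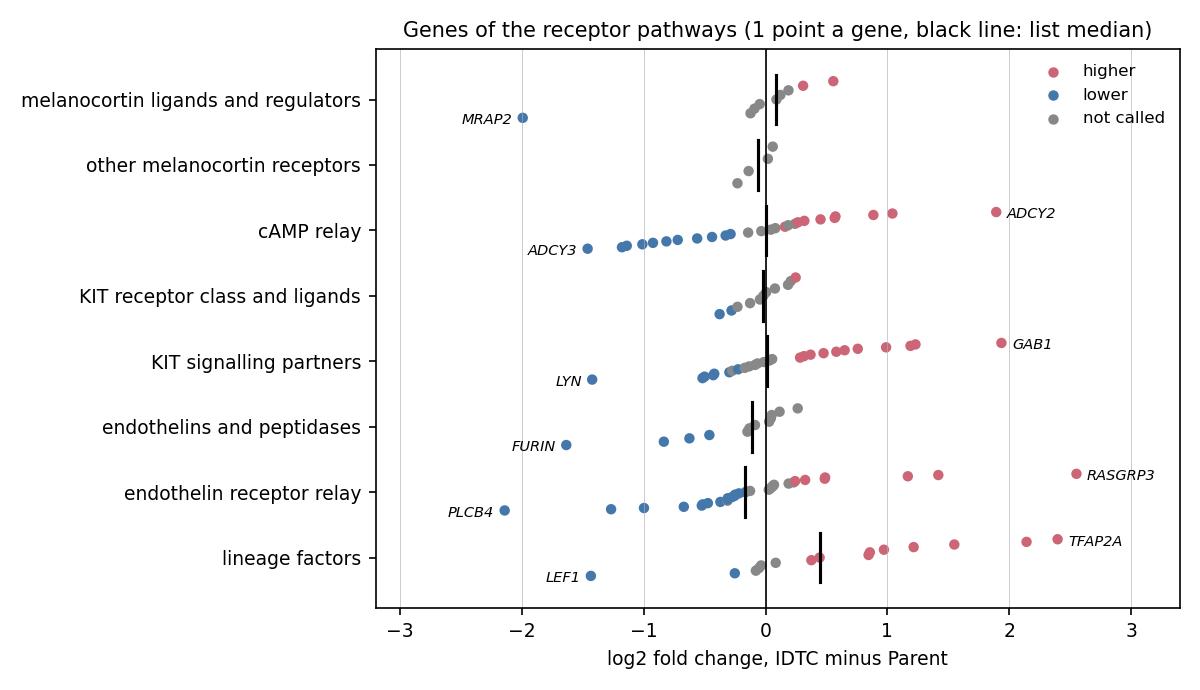
Each point is the log2 fold change (IDTC minus Parent) of 1 gene in 8 lists of pathway genes, in red where called higher, blue where called lower and grey where not called, with the list median as a black line. Medians lie near 0 except that of the lineage factors (0.44), and single genes such as RASGRP3 (2.55) and PLCB4 (-2.14) lie far from the median of their list.

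Of 15 transcription factor genes of the lineage 9 rose, 2 fell and 4 were not called (73.3% called, median 0.44). Their median brightness percentile was 77.9, and 65% of the brightest 60% of all genes were called. MITF itself read 11.140, 11.140 and 11.127 in Parent and 11.197, 11.068 and 11.035 in IDTC cells, a difference of -0.04 ± 0.06 (adjusted p = 0.671, 95% interval -0.18 to 0.11). Its groups overlapped, and the protein and its activity were not measured. SOX10, which is needed for EDNRB expression in neural crest cells, rose by 0.85 ± 0.05, from 10.73 ± 0.06 to 11.57 ± 0.01. Whether MITF or SOX10 had a part in the changes of MC1R and EDNRB was not tested. TFAP2A, a factor with targets among pigment cell genes, rose by 2.40 ± 0.05, and ZEB2 and SNAI2, factors of migrating neural crest cells, by 2.14 ± 0.05 and by 1.55 ± 0.06. LEF1, the Wnt pathway factor, fell by 1.43 ± 0.06. The other fall, that of IRF4 (-0.25), was lost without either of Parent 2, Parent 3, IDTC 2 or IDTC 3.

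The genes whose profiles over the 6 arrays were most like those of the members were found as the 2 with the lowest root mean square difference after each profile was centred on its Parent mean. For EDNRB these were CRYL1 (2.65, root mean square difference 0.05 log2) and the sialyltransferase gene ST6GALNAC2 (2.67, 0.07). For MC1R they were GRPEL1, a co-chaperone of mitochondrial import (-1.59, 0.03), and NOC2L (-1.59, 0.03), and for ECE1 the dCTP pyrophosphatase gene DCTPP1 (-1.71, 0.02) and HEG1 (-1.72, 0.04). KITLG was matched less closely, by the decoy receptor gene IL13RA2 (-1.60, 0.10) and by RGS17 (-1.43, 0.14). The nearest genes of KIT were TTC6 and OR6W1P and those of EDN1 were CNTD1 and TNNI1, and none of these 4 was called. With 6 arrays in 2 groups, likeness here is mostly a like fold change.

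Calls were made for 46.6% of all genes (21.7% higher and 24.9% lower) and for 65% of the brightest 60%. Of 11 melanocyte markers 9 rose, 1 fell and 1 was not called (90.9% called). TYRP1 had the largest rise (2.89 ± 0.12), and whether it lay above background in Parent cells (mean 4.69) is unknown. S100B was the one that fell (-0.85 ± 0.07), and the rise of OCA2 was lost under 7 of 12 alternatives. These markers were bright, at a median percentile of 95.8, and their mean log2 level was 9.27 to 9.31 on Parent and 10.10 to 10.23 on IDTC arrays. Of 15 ERK feedback and target genes 14 fell and 1, EGR1, rose by 0.83 ± 0.06 (100% called, at a median brightness percentile of 92.2). Among those that fell were ETV4 (-4.24 ± 0.06) and DUSP6 (-2.44 ± 0.06), a phosphatase of ERK. No keratinocyte or endothelial marker was called by limma or had an unadjusted p under 0.05, and the largest differences were those of DSC3 (0.18 ± 0.08) and EMCN (0.13 ± 0.11). Other scalings, the block and left-out arrays called at most 1 marker of each list. The mean log2 level of the keratinocyte markers was 5.10 to 5.24 on Parent and 5.20 to 5.29 on IDTC arrays, and that of the endothelial markers 5.11 to 5.22 and 5.12 to 5.25. Of 10 fibroblast markers 2 rose and 2 fell (40% called), with LUM lower by 0.89 ± 0.14. ACTA2 and FAP were no longer called higher under 9 and 5 of 12 alternatives. The mean level of the 10 fibroblast markers was 5.83 to 5.92 and 5.81 to 5.84. Of 5 mast cell markers CMA1 rose by 0.27 ± 0.06 and none fell (20% called), at mean levels of 4.64 to 4.76 and 4.74 to 4.88. All arrays were of cultures of the WM164 line, with no other cell type in the design. The cause of the fall of KITLG was not tested. Over all genes, r was 0.995 to 0.998 within a group and 0.953 to 0.957 between groups, and no label gives a batch.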

How the data were processed

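Expression was measured on 6 Affymetrix whole-transcript arrays. The deposited table held log2 expression values of 33297 probe sets. Per the submitters' processing notes the authors used Affymetrix Expression Console, RMA and Partek 6.6, without a stated order; a genome build was not stated. The values were used as deposited, with array medians of 6.25 to 6.36. Depth has no counterpart on arrays, and their number limits the precision. Of 21214 probe sets in the platform annotation, 19460 had 1 symbol and 1754 several, and 12083 were not listed. The brightest probe set stood for a gene, which gave 18417 genes.

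The fit used limma (version 3.58.1, under R 4.3.3) with a 2-sided moderated test, no covariates and no filter, with Benjamini-Hochberg adjustment over all genes, and was tested on simulated data. Groups came from the sample titles. Named were all members, up to 4 called genes of each list (up to 2 where none was called), MITF, SOX10 and 2 like genes per member. Genes outside this rule were named after their values were seen, among them S100B, OCA2, KEL, IRF4, EGR1, GNAS, GNAQ, GNA11, POMC, ASIP, ADAM17, EDN2 and EDN3. The members and lists were chosen with earlier results of these data known. The 13 alternatives were other scalings, filters, probe set rules, priors, a replicate block and leaving out each array. RefSeq names, promoters and motif matches are of GRCh38.p14, and the windows were cut to the 250 bases before each start.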

Additional observations from a re-analysis of the deposited data

How the results depend on the processing

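EDNRB was called higher and MC1R and ECE1 were called lower under all 13 alternatives, with log2 fold changes of 2.63 to 2.74, -1.62 to -1.53 and -1.74 to -1.65. KITLG was called lower under the 12 alternatives that kept it, at -1.74 to -1.32. Leaving out the dimmest 40% of genes removed KIT, KITLG and EDN1, so 2 members were called lower there. Without 1 array, the number of members called was 1 higher and 3 lower each time, and the number of all genes called 7375 to 8875. Shared sample numbers were not taken to pair the arrays, since the deviations of same-numbered arrays correlated at r = 0.31, -0.19 and 0.26, not all positive. With so few arrays these values cannot exclude a pairing. With the replicate block KIT was called higher (0.25, adjusted p = 0.030), which made 2 members higher, and 8855 genes were called against 8588. Over its other alternatives the adjusted p of KIT was 0.066 to 0.278. EDN1, never called, turned to 0.0234 without IDTC replicate 2; without 1 array it ranged from -0.16 to 0.02 and KIT from 0.13 to 0.32. KIT minus MC1R was 1.68 after quantile normalization against 1.85, and no other pair moved by more than the spread of its arrays. EDNRB minus EDNRA could not be computed. The number of arrays and the brightness of KIT, KITLG and EDN1 limit what these values can show.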

Other observations

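Some deposited values were shared exactly by arrays of a group. At all deposited digits, 216 of 18417 genes had 1 value on all 3 Parent arrays and 138 on all 3 IDTC arrays. In either group, at least 2 arrays held the same value for 15.1% of genes. Among the genes named above, PCSK6 in IDTC and ST6GALNAC2 in Parent cells had an SD of 0 for this reason. Others read the same on 2 arrays as printed, among them MITF and ADCY2 in Parent and PHEX in IDTC cells. None of the 6 measured members had a shared value within a group. The SD of such a gene understates the spread of its measurement.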
